A study of Homo sapiens with 8 samples.

Results

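The 10 genes described here encode proteins that sit at or act on the mitochondrial outer and inner membranes: the voltage-dependent anion channels VDAC1, VDAC2 and VDAC3, the adenine nucleotide carriers SLC25A4, SLC25A5 and SLC25A6, the translocator protein TSPO, the hexokinases HK1 and HK2, and cytochrome c, CYCS. They were chosen by symbol, through the transcript that the array design gives for each probe, and are 10 of the 16955 genes that had a tested probe. The arrays carried 16 probes for them, of which 15 were tested, and each gene was read from its probe of highest mean signal over the 8 arrays. Total RNA came from OVSAHO and KURAMOCHI, both established cell lines of ovarian carcinoma, each cultured with simvastatin or with L-778123. Each of these 4 groups was read on 2 one-color arrays, 8 in all. Simvastatin is a statin, which blocks HMG-CoA reductase at the head of the mevalonate pathway, and L-778123 inhibits the farnesyl and geranylgeranyl transferases, the enzymes that attach prenyl groups made by that pathway to proteins. The comparison asks which genes are regulated differently by the statin than by inhibition of prenylation alone. Untreated cells were not analysed here, and a fold change therefore compares the drugs with each other without telling which of them moved a gene. Doses and culture times of the arrayed cells are not given in the sources used here, and each line is a single model.

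The outer mitochondrial membrane is crossed by VDAC, a barrel-shaped channel through which ATP, ADP, pyruvate and other metabolites pass. The adenine nucleotide carriers of the inner membrane exchange the ATP made in the matrix for ADP from the cytosol, and hexokinase can bind VDAC on the cytosolic face, where it uses that ATP to phosphorylate glucose in the first step of glycolysis. TSPO is an outer membrane protein that binds cholesterol, and cytochrome c carries electrons in the intermembrane space and, once released through the outer membrane, takes part in the apoptosome.

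Values are intensities of a probe divided by the 75th percentile of its own array, written as times the 75th percentile, and are compared within a probe and never between genes. The 75th percentile of the intensity was 324 to 437 over the arrays, 51.8% to 57.5% of 58162 probes were well above background, and 0 spots were saturated. Replicate arrays correlated at a Pearson r of 0.995 to 0.996 across probes, which are not independent replicates. All arrays lay on 1 slide, on which position and group cannot be told apart. Nothing in the labels says that replicate arrays came from separate cultures, so that p-values measure the spread between these arrays, which may be technical. Adjusted p values are those of limma with Benjamini-Hochberg adjustment over all 33753 tested probes, and a gene passed at an adjusted p under 0.05. All 10 probes read here were well above background on all 8 arrays. The 10 markers of serous carcinoma and epithelium, PAX8 and MUC16 among them, were well above background on every array. That does not make each of them high. In KURAMOCHI MUC16 read 0.12 times the 75th percentile with simvastatin and 0.23 times with L-778123, and CDH1 0.21 times with either drug. PAX8 read 21.2 and 13.5 times there. Of 9 leukocyte, endothelial and fibroblast markers, 4 in OVSAHO and 6 in KURAMOCHI exceeded background on both arrays of each of the line's groups, while PECAM1 and DCN were above background on no array.

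For 9 of the 10 genes, 22 starts annotated in RefSeq (GRCh38.p14) were read. Starts of VDAC3 and starts on chromosome Y were left out. The 250 bases before the start are printed for the 4 genes with a single start among those read. CYCS and SLC25A4 were lower with simvastatin than with L-778123 in each cell line, and SLC25A5 and SLC25A6 are the carrier paralogs of SLC25A4, for comparison with it. Capitals mark CCAAT boxes (CCAAT, or ATTGG on the other strand) and GC boxes (GGGCGG, or CCGCCC on the other strand), 2 motifs that share no overlap in the marked matches and that were chosen for display after the matches had been seen.
CYCS, chr7:25125261-25125510, minus strand: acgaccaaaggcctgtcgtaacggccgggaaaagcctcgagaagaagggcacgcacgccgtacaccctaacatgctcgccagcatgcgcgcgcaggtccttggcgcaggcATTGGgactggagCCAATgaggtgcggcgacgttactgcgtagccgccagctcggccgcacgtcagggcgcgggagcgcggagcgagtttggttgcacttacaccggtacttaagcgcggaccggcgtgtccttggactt
SLC25A4, chr4:185143016-185143265, plus strand: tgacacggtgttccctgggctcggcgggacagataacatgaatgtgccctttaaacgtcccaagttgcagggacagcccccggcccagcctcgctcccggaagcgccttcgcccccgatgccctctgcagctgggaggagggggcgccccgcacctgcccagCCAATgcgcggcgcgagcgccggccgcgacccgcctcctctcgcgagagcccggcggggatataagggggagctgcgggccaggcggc
SLC25A5, chrX:119468194-119468443, plus strand: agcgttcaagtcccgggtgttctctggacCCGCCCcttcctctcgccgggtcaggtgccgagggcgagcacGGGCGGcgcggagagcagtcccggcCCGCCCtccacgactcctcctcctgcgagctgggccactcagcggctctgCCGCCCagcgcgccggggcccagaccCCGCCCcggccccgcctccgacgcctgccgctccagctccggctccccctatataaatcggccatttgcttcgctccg
SLC25A6, chrX:1392114-1392363, minus strand: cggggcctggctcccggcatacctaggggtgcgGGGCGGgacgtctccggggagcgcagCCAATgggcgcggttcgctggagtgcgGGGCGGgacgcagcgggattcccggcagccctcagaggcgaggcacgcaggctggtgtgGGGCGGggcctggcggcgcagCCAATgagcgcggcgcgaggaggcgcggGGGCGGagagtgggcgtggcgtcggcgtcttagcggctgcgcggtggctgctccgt
The CYCS window held 2 CCAAT boxes and 0 GC boxes, the SLC25A4 window 1 CCAAT box and 0 GC boxes, the SLC25A5 window 0 CCAAT boxes and 5 GC boxes, and the SLC25A6 window 2 CCAAT boxes and 4 GC boxes. VDAC1 was also lower with simvastatin in each line, and its starts held 1, 0, 2 and 2 GC boxes and 1, 0, 0 and 0 CCAAT boxes. SLC25A5 was itself lower with simvastatin in KURAMOCHI. Whether the boxes go with the drug effects was not tested. Over windows of the same length at 35116 promoters, 32% held a CCAAT box and 42.6% a GC box on either strand. The core of the NRF1 motif, on either strand, present in 5.07% of all windows, was matched at 0 of the 22 starts read, which include none of VDAC3. An E-box (CACGTG), present in 6.34% of all windows, was matched at 1 of the starts of VDAC2 and 1 of the starts of HK2. A match describes these letters and is not evidence of a bound factor.

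In OVSAHO cells 7 of the 10 genes passed between simvastatin and L-778123, against 53.9% of all genes tested. VDAC1, VDAC3, SLC25A4 and CYCS were lower with simvastatin, VDAC2, SLC25A6 and TSPO were higher, and SLC25A5, HK1 and HK2 did not pass. In KURAMOCHI cells 6 of the 10 passed, against 35.4% of all genes, and all 6 were lower with simvastatin: VDAC1, VDAC2, VDAC3, SLC25A4, SLC25A5 and CYCS. Of all genes, 26.4% passed as higher and 27.5% as lower in OVSAHO, and 17.1% and 18.4% in KURAMOCHI. The probes of the 10 genes were brighter than those of 68.3% (HK2) to 98.8% (TSPO) of all genes, a rank of signal and not of RNA. The shares of all genes thus include many dimmer probes, and a match for brightness was not tested. The median log2 fold change of the 10 genes was -0.068 in OVSAHO and -0.25 in KURAMOCHI, where that of all genes was 0.014 and 0.012. At least a 2-fold change was seen for CYCS in OVSAHO alone, where 11.6% of all genes passed with such a change, and for 0 of the 10 genes in KURAMOCHI, where 5.38% did. In bulk RNA a lower level can be less RNA of the gene in every cell or fewer cells that hold it, and these cannot be told apart.

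**Figure D1:**
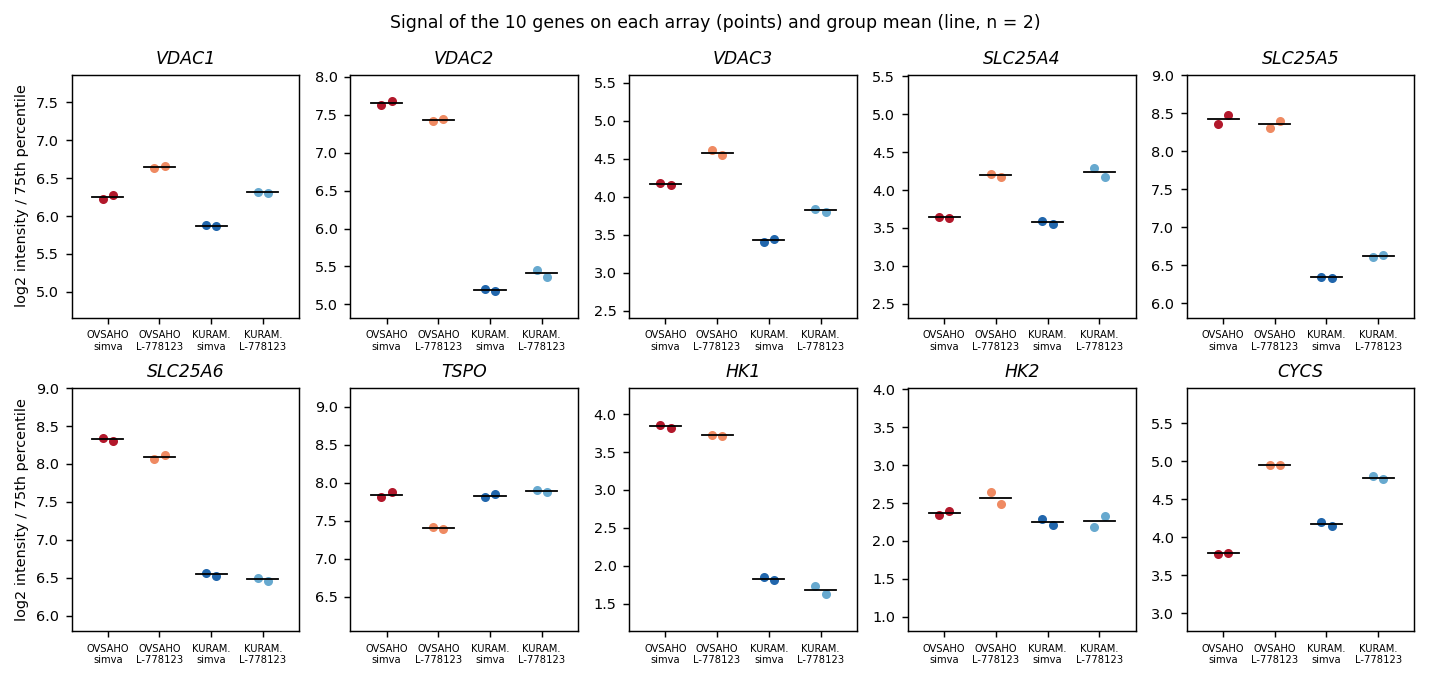
Log2 of the intensity over the array's 75th percentile (y axis) for the 10 genes in the 4 groups (x axis; simva, simvastatin; KURAM., KURAMOCHI). Each point is 1 array and each line the mean of 2. All panels span the same number of log2 units. VDAC1, VDAC3, SLC25A4 and CYCS lie lower with simvastatin in both lines, and VDAC2, SLC25A5, SLC25A6 and HK1 separate the lines by more than 2-fold.

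VDAC1, the most studied of the channels and a gene the authors weighed elsewhere as a marker of the response to statins, was lower with simvastatin in both cell lines. In OVSAHO its probe read 74.8 and 77.7 times the 75th percentile with simvastatin, and 99.7 and 101 times with L-778123. KURAMOCHI arrays read 59.0 and 58.3 times with simvastatin, and 80.0 and 78.8 times with L-778123. The arrays of the 2 drugs did not overlap in either line. The log2 fold change was -0.40 in OVSAHO (standard error 0.053, limma adjusted p = 0.00209), which is 1.32-fold lower. In KURAMOCHI it was -0.44 (standard error 0.053, adjusted p = 0.00298 from limma), or 1.35-fold lower. From one line to the other the drug effect differed by 0.038 on the log2 scale, with a 95% interval of -0.15 to 0.22 (adjusted p = 0.751 from limma). The sign of this small difference turned to -0.031 under quantile normalization. The second VDAC1 probe gave log2 fold changes of -0.32 and -0.44 in the same order.

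Between the lines VDAC1 was higher in OVSAHO, by 0.36 on the log2 scale averaged over both drugs (standard error 0.037, adjusted p = 2.26e-04 from limma). This line difference was 0.38 with simvastatin and 0.34 with L-778123, and it shrank to 0.15 under quantile normalization, where it still passed. In the order of levels, OVSAHO with L-778123 stood highest and KURAMOCHI with simvastatin lowest. The groups between them, KURAMOCHI with L-778123 and OVSAHO with simvastatin, differed by 0.059, which did not pass (adjusted p = 0.350 from limma).

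VDAC3, the third channel isoform, was lower with simvastatin in both lines, as VDAC1 was. In OVSAHO it read 18.1 and 17.8 times the 75th percentile with simvastatin against 24.4 and 23.3 times with L-778123. In KURAMOCHI the readings were 10.6 and 10.9 times with simvastatin and 14.3 and 13.9 times with L-778123. Again no array of one drug reached those of the other within a line. The log2 fold changes were -0.41 (standard error 0.056, adjusted p = 0.00224 from limma) and -0.40 (standard error 0.056, adjusted p = 0.00490 from limma). Their difference between the lines was -0.018, with an interval of -0.21 to 0.18, and its sign turned under quantile normalization, to 0.012. All 4 groups of VDAC3 were separated in order, OVSAHO above KURAMOCHI, with neighbours differing by 0.35 to 0.41 on the log2 scale, each of which passed. The line difference averaged over drugs was 0.75 (standard error 0.040, adjusted p = 1.02e-05 from limma).

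VDAC2, the isoform known for holding the pro-apoptotic protein BAK at the outer membrane, went in opposite directions between the drugs in the cell lines. In OVSAHO it read 197 and 204 times the 75th percentile with simvastatin and 171 and 173 times with L-778123. The KURAMOCHI readings were 36.8 and 36.2 times with simvastatin and 43.9 and 41.1 times with L-778123. The drugs did not overlap in either line, but simvastatin was the higher in OVSAHO and the lower in KURAMOCHI. The log2 fold changes were 0.22 (standard error 0.060, adjusted p = 0.0267 from limma) in OVSAHO and -0.22 (standard error 0.060, adjusted p = 0.0399 from limma) in KURAMOCHI, and their difference of 0.44 passed (standard error 0.084, adjusted p = 0.0178 from limma). The separate drug effects are close to the threshold, and of 18 alternatives of processing and arrays the call was lost in 9 in OVSAHO and in 14 in KURAMOCHI. The OVSAHO call was lost without any 1 of the 4 OVSAHO arrays (adjusted p of 0.0629 to 0.114 from limma), the KURAMOCHI call without any 1 of the 8 arrays (0.0599 to 0.162), and the call of the difference without OVSAHO simvastatin replicate 2, OVSAHO L-778123 replicate 1, either KURAMOCHI simvastatin array or KURAMOCHI L-778123 replicate 1 (0.0518 to 0.0592). The second VDAC2 probe pointed the same ways, at 0.13 and -0.19, and passed in neither line. Its difference of the drug effects, 0.32, did not pass either (adjusted p = 0.110 from limma).

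Between the lines VDAC2 differed more than it did between the drugs. Averaged over both drugs OVSAHO was 4.72-fold above KURAMOCHI, a log2 difference of 2.24 (standard error 0.042, adjusted p = 2.58e-07 from limma). It was 2.46 with simvastatin and 2.02 with L-778123, and the second probe gave 2.12. Every OVSAHO array stood above every KURAMOCHI array.

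Of the adenine nucleotide carriers, SLC25A4, the isoform best known from heart and skeletal muscle, was lower with simvastatin in both lines. In OVSAHO it read 12.5 and 12.4 times the 75th percentile with simvastatin and 18.6 and 18.1 times with L-778123. On KURAMOCHI arrays it was 12.1 and 11.7 times with simvastatin and 19.5 and 18.1 times with L-778123. The 4 simvastatin arrays lay together below the 4 L-778123 arrays, whichever the line. The drop, as a log2 fold change, was -0.56 in OVSAHO (standard error 0.062, limma adjusted p = 0.00109) and -0.65 in KURAMOCHI (standard error 0.062, adjusted p = 0.00135 from limma), or 1.47-fold and 1.57-fold lower. SLC25A4 is also the gene of the 10 for which no line difference passed: averaged over drugs it was 0.014 on the log2 scale, with an interval of -0.094 to 0.12 (adjusted p = 0.779 from limma), and its sign turned to -0.022 under quantile normalization.

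SLC25A5, the isoform of proliferating cells, differed chiefly between the lines. It read 328 and 358 times the 75th percentile in OVSAHO with simvastatin and 318 and 338 times with L-778123, so that the drugs overlapped there. KURAMOCHI arrays read 81.1 and 81.0 times with simvastatin, below the 97.9 and 99.5 times with L-778123. The log2 fold change in KURAMOCHI was -0.28 (standard error 0.068, adjusted p = 0.0270 from limma). Without 1 array of that line it ranged over -0.30 to -0.27 and did not pass, with adjusted p of 0.0883 to 0.106 from limma. In OVSAHO it was 0.064, with an interval of -0.10 to 0.23, and -0.033 under quantile normalization. The difference between the lines, 0.35, missed the threshold (standard error 0.096, adjusted p = 0.0518 from limma), and passed under 4 of 16 alternatives. Between the lines SLC25A5 was 3.75-fold higher in OVSAHO, a log2 difference of 1.91 (standard error 0.048, adjusted p = 6.33e-07 from limma).

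SLC25A6, the third widely expressed carrier, was 3.23-fold higher in OVSAHO than in KURAMOCHI, a log2 difference of 1.69 (standard error 0.039, adjusted p = 4.77e-07 from limma), and 2.40 at its second probe. With simvastatin it read 324 and 316 times the 75th percentile in OVSAHO and 94.8 and 92.2 times in KURAMOCHI. With L-778123 it read 268 and 278 times in OVSAHO and 90.5 and 88.3 times in KURAMOCHI. Simvastatin arrays were the higher in both lines, without overlap. The log2 fold change passed in OVSAHO, at 0.23 (standard error 0.055, adjusted p = 0.0177 from limma), and did not in KURAMOCHI, at 0.065 (adjusted p = 0.421 from limma). The OVSAHO call was lost in 7 of 18 alternatives, among them quantile normalization, at 0.11, and each omission of an OVSAHO simvastatin array or of OVSAHO L-778123 replicate 1 (adjusted p of 0.0531 to 0.0799 from limma). It did not pass at the second probe, at 0.17. The difference of the drug effects between the lines, 0.17, did not pass (adjusted p = 0.186 from limma).

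**Figure D2:**
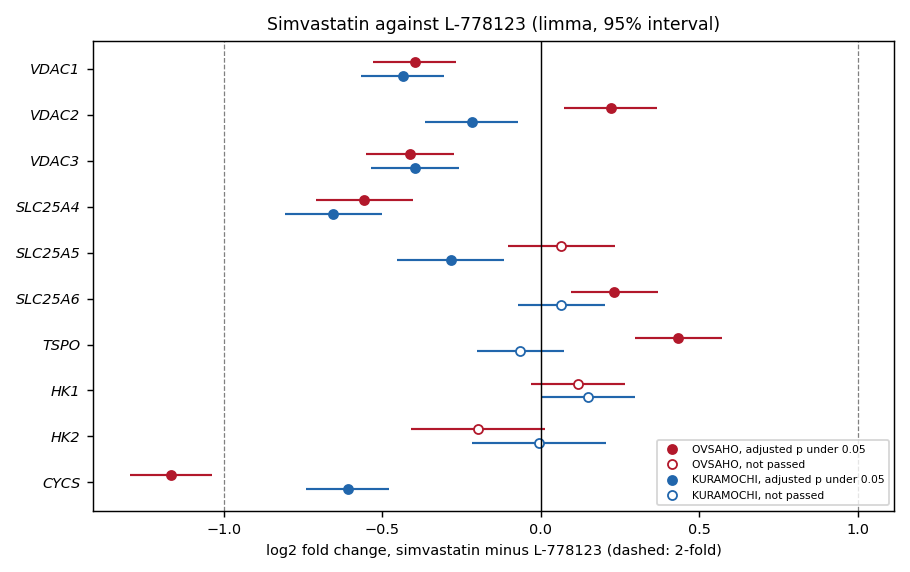
Log2 fold change of simvastatin minus L-778123 (x axis) for each of the 10 genes (rows), in OVSAHO (red) and KURAMOCHI (blue). Points are limma estimates, bars 95% intervals, filled points an adjusted p under 0.05, and dashed lines a 2-fold change. VDAC1, VDAC3, SLC25A4 and CYCS lie left of 0 in both lines, CYCS in OVSAHO lies beyond 2-fold at -1.17, and VDAC2 lies on different sides in the lines. TSPO lies right of 0 in OVSAHO, and its KURAMOCHI interval spans 0.

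TSPO, the cholesterol-binding outer membrane protein, stood at a similar level in 3 groups and lower in the fourth, OVSAHO with L-778123. It read 224 and 235 times the 75th percentile in OVSAHO with simvastatin and 171 and 168 times with L-778123. For KURAMOCHI it was 224 and 230 times with simvastatin and 240 and 236 times with L-778123. In the order of levels the 3 upper groups did not differ from their neighbours beyond the spread, by 0.052 and 0.013 on the log2 scale, and the lowest lay 0.42 below the next (adjusted p = 8.28e-04 from limma). The log2 fold change between the drugs was 0.43 in OVSAHO (standard error 0.055, limma adjusted p = 0.00180), or 1.35-fold higher with simvastatin. In KURAMOCHI it was -0.066 (adjusted p = 0.414 from limma), and the difference between the lines, 0.50, passed (standard error 0.078, adjusted p = 0.00966 from limma). The line difference of TSPO depended on the drug. With L-778123 it was -0.49 (adjusted p = 4.45e-04 from limma), lower in OVSAHO. With simvastatin it was 0.013 (adjusted p = 0.846 from limma), which turned to -0.37 and passed under quantile normalization (adjusted p = 0.00103 from limma), a normalization that also moved the average over drugs from -0.24 to -0.58.

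The hexokinases did not pass between the drugs in either line. HK1, the isoform of most tissues, read 14.5 and 14.1 times the 75th percentile in OVSAHO with simvastatin and 13.3 and 13.1 times with L-778123. KURAMOCHI arrays read 3.60 and 3.50 times with simvastatin and 3.32 and 3.10 times with L-778123. Each simvastatin array was above the L-778123 arrays of its line, yet the log2 fold changes, 0.12 with an interval of -0.030 to 0.27 in OVSAHO and 0.15 with an interval of -2.16e-04 to 0.30 in KURAMOCHI, missed the threshold (adjusted p = 0.155 and 0.115 from limma). Between the lines HK1 was 4.07-fold higher in OVSAHO, a log2 difference of 2.03 (standard error 0.042, adjusted p = 3.49e-07 from limma), and 2.01 and 2.04 within the drugs.

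HK2, the isoform known to be raised in many tumours, had the largest standard error of the 10 genes, 0.085 on the log2 scale. It read 5.08 and 5.25 times the 75th percentile in OVSAHO with simvastatin and 6.26 and 5.61 times with L-778123. In KURAMOCHI it read 4.90 and 4.64 times with simvastatin and 4.55 and 5.04 times with L-778123, so that the drugs overlapped there. The log2 fold change was -0.20 in OVSAHO, with an interval of -0.41 to 0.012 (adjusted p = 0.104 from limma). In KURAMOCHI it was -0.0070, with an interval of -0.22 to 0.20 (adjusted p = 0.958 from limma), and its sign turned to 0.011 under quantile normalization. No neighbours in the order of the 4 HK2 levels differed beyond the spread. Averaged over drugs HK2 was 0.21 higher in OVSAHO on the log2 scale (standard error 0.060, adjusted p = 0.0190 from limma), a call lost in 6 of 16 alternatives, among them the omission of simvastatin replicate 2 of either line or L-778123 replicate 1 of either line (adjusted p of 0.0511 to 0.0609 from limma). Its second probe was well above background on 0 arrays and was not tested.

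CYCS, the electron carrier between respiratory complexes III and IV, had the largest drug effect of the 10 genes in OVSAHO, with the only change of at least 2-fold. It read 13.7 and 13.9 times the 75th percentile in OVSAHO with simvastatin and 31.1 and 30.9 times with L-778123. In KURAMOCHI the readings were 18.4 and 17.8 times with simvastatin and 28.0 and 27.2 times with L-778123. The simvastatin arrays lay below the L-778123 arrays in both lines, and lowest in OVSAHO. The log2 fold change was -1.17 in OVSAHO (standard error 0.053, limma adjusted p = 6.03e-05), or 2.24-fold lower, and -0.61 in KURAMOCHI (standard error 0.053, adjusted p = 0.00101 from limma), or 1.53-fold lower. The effects differed between the lines by -0.56 (standard error 0.074, adjusted p = 0.00592 from limma). The other CYCS probes gave -1.28 and -0.99 in OVSAHO, and -0.57 and -0.29 in KURAMOCHI, where the last did not pass (adjusted p = 0.0737 from limma).

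The line difference of CYCS depended on the drug. With simvastatin OVSAHO was 0.39 below KURAMOCHI on the log2 scale (standard error 0.053, adjusted p = 9.35e-04 from limma), and with L-778123 it was 0.17 above (standard error 0.053, adjusted p = 0.0302 from limma). The second of these calls was lost in 11 of 18 alternatives, and that of the average over drugs, -0.11 (adjusted p = 0.0355 from limma), in 11 of 16. Leaving out any 1 of the 8 arrays sufficed for either loss, with an adjusted p from limma of 0.0505 to 0.123 with L-778123 and 0.0615 to 0.106 for the average. The second CYCS probe gave line differences of -0.41 with simvastatin and 0.30 with L-778123, which both passed, and the third gave -0.81, which passed, and -0.11, which did not (adjusted p = 0.357 from limma), so that the sign of the line difference with L-778123 was not the same at every probe.

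Across the lines, 9 of the 10 genes passed averaged over both drugs, against 82.9% of all genes tested. VDAC1, VDAC2, VDAC3, SLC25A5, SLC25A6, HK1 and HK2 were higher in OVSAHO and TSPO and CYCS were lower, where 42.4% of all genes passed as higher and 40.5% as lower. A difference of at least 2-fold was found for VDAC2, SLC25A5, SLC25A6 and HK1, against 34.8% of all genes. The median log2 line difference of the 10 genes was 0.55, and that of all genes 0.028. With simvastatin alone 7 passed, against 77.1% of all genes, and with L-778123 alone 9 passed, against 75.4%. In the comparison of the drug effects between the lines, 3 of the 10 passed, VDAC2, TSPO and CYCS, against 27.4% of all genes.

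**Figure D3:**
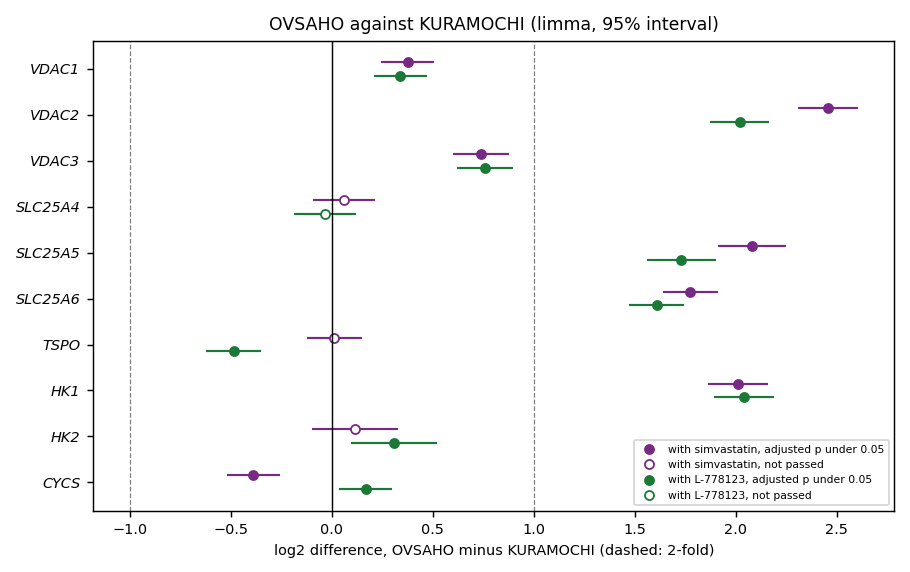
Log2 difference of OVSAHO minus KURAMOCHI (x axis) for each of the 10 genes (rows), with simvastatin (purple) and with L-778123 (green). Points are limma estimates, bars 95% intervals, filled points an adjusted p under 0.05, and dashed lines a 2-fold difference. VDAC2, SLC25A5, SLC25A6 and HK1 lie beyond 2-fold with either drug, SLC25A4 lies at 0, and TSPO and CYCS shift with the drug.

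As a description over the 8 arrays, which fall into 2 lines and 4 groups and share them, VDAC2, SLC25A5, SLC25A6 and HK1 had pairwise Pearson correlations of 0.986 to 0.998, and SLC25A4 and CYCS one of 0.915. VDAC1 correlated with VDAC3 at 0.928. The genes whose pattern over the arrays was most like that of VDAC1 were CYC1, a subunit of the cytochrome bc1 complex, and MTHFD1, an enzyme of folate metabolism, each at 0.996, then ZNF99 and SPC24, a kinetochore protein, each at 0.995. CYC1 read log2 fold changes of -0.42 in OVSAHO and -0.42 in KURAMOCHI, beside -0.40 and -0.44 for VDAC1. SPC24 moved further, at -1.39 and -1.31.

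Genes that work with the 10 were read from 7 lists, whose counts stand against the 26.4% of all genes that passed as higher and 27.5% as lower with simvastatin in OVSAHO, and 17.1% and 18.4% in KURAMOCHI. Many of these counts are small and depended on single arrays. The arrays whose omission moved a count by a larger step are named, and smaller moves are given only as a range or left out. Of the 16 tested enzymes of glycolysis after hexokinase, 1 was higher and 7 were lower with simvastatin in OVSAHO, and 2 were higher and 9 lower in KURAMOCHI. With 1 array left out these counts were 1 to 2, 6 to 7, 0 to 2 and 7 to 10, and the KURAMOCHI higher count was 0 without simvastatin replicate 1 or L-778123 replicate 2 of that line and 1 without either OVSAHO simvastatin array or the other KURAMOCHI arrays. The OVSAHO higher count was 2 without either KURAMOCHI L-778123 array. The list's median log2 fold change was -0.14 and -0.38. In KURAMOCHI the largest change was in PKM, pyruvate kinase, at -0.86 (standard error 0.068, adjusted p = 7.96e-04 from limma), and in OVSAHO in ENO2, the neuronal enolase, at 1.08 (standard error 0.071, adjusted p = 1.78e-04 from limma). PKM was also lower in OVSAHO, at -0.58. HK1 and HK2 themselves passed in 0 of 4 tests between the drugs with limma, also at an unadjusted p under 0.05, and under 0 of the 18 alternatives in either line. ENO3 had the largest line difference of this list, -2.18, and 9 of the enzymes were higher and 5 lower in OVSAHO than in KURAMOCHI, or 3 lower without KURAMOCHI L-778123 replicate 1. Between the lines 42.4% of all genes passed as higher and 40.5% as lower in the main fit.

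Of the other hexokinases and glucose carriers, 3 of 5 were tested, with 2 higher and 0 lower with simvastatin in OVSAHO and 0 higher and 1 lower in KURAMOCHI. The OVSAHO higher count was 1 without either OVSAHO simvastatin array or OVSAHO L-778123 replicate 2. SLC2A1, the glucose transporter GLUT1, read 0.40 in OVSAHO on the log2 scale (adjusted p = 0.00316 from limma). It read -0.26 in KURAMOCHI (adjusted p = 0.0226 from limma) and did not pass without either KURAMOCHI simvastatin array (adjusted p = 0.0915 and 0.0891) or without L-778123 replicate 1 (adjusted p = 0.101).

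Among 8 tested partners of adenylate exchange and permeability transition, 1 was higher and 3 were lower with simvastatin in OVSAHO, and 0 were higher and 3 lower in KURAMOCHI. The KURAMOCHI lower count was 1 without simvastatin replicate 1 or L-778123 replicate 1 of that line, its higher count was 1 without the former, and the OVSAHO higher count was 2 without either KURAMOCHI simvastatin array. The OVSAHO lower count was 2 to 3 with 1 array left out. PPIF, cyclophilin D, a regulator of the permeability transition pore, had the largest change that passed in each line, -0.98 in OVSAHO (standard error 0.059, limma adjusted p = 1.30e-04) and -0.57 in KURAMOCHI (standard error 0.059, adjusted p = 0.00176 from limma). Between the lines CKMT1A, a mitochondrial creatine kinase, differed by 6.36 on the log2 scale and was well above background on 1 of 4 KURAMOCHI arrays, so that the size of this difference depends on dim values. Of 10 genes of contact sites and calcium uptake, 1 was higher and 3 were lower in OVSAHO, and 2 were higher and 2 lower in KURAMOCHI. The KURAMOCHI higher count was 1 without any array but KURAMOCHI simvastatin replicate 2, where it was 3, and the lower count was 1 without simvastatin replicate 1 or L-778123 replicate 2 of that line. In OVSAHO 1 was higher and 3 to 4 were lower with 1 array left out. The inositol trisphosphate receptors, calcium channels of the endoplasmic reticulum, differed among themselves. In OVSAHO ITPR3 was higher with simvastatin, at 0.91, while ITPR1 at -0.13 and ITPR2 at -0.34 did not pass. In KURAMOCHI ITPR1 was higher, at 1.59, and ITPR3 at 0.26 (adjusted p = 0.0492 from limma), while ITPR2 at 0.14 did not pass. MICU3, a regulator of the calcium uniporter, was at least 36.2-fold higher in OVSAHO, a bound set by the dimmest signal well above background, since it was well above background on 0 of 4 KURAMOCHI arrays (adjusted p = 8.70e-08 from limma).

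Of 8 tested ligands and partners of TSPO, 5 were higher and 0 lower with simvastatin in OVSAHO, and 4 were higher and 0 lower in KURAMOCHI, with a median of 0.35 and 0.27. The KURAMOCHI higher count fell to 1 or 2 without any 1 of the 4 KURAMOCHI arrays, and to 1 without the filter on dim probes or with Tukey's test in place of limma. In OVSAHO 4 to 5 were higher with 1 array left out, and 1 was lower without either KURAMOCHI L-778123 array. With normexp 2 were lower in OVSAHO and 1 in KURAMOCHI. With only probes well above background on all 8 arrays, or with the median of a gene's probes, 1 was lower in each line. TSPOAP1, a protein named for binding TSPO, had the largest change in each line, 1.55 (standard error 0.12, adjusted p = 3.51e-04 from limma) and 1.57 (standard error 0.12, adjusted p = 7.96e-04 from limma). TSPOAP1 was well above background on all 8 arrays but dim in OVSAHO. Its mean log2 value there was -2.60 with simvastatin and -4.15 with L-778123, so that the size of that change depends on dim values. It was higher in KURAMOCHI with simvastatin while TSPO was not, at -0.066. CYP11A1, which makes pregnenolone from cholesterol, was lower in OVSAHO than in KURAMOCHI by a log2 difference of -2.57 and was well above background on 3 of 4 OVSAHO arrays. It is also among the 5 genes higher with simvastatin in OVSAHO, where only 1 L-778123 array was well above background for it.

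Of the 11 genes of outer membrane import and assembly, the machinery that inserts VDAC into the membrane, 2 were higher and 7 lower with simvastatin in OVSAHO, and 1 was higher and 2 were lower in KURAMOCHI. The OVSAHO higher count was 0 without simvastatin replicate 2 or L-778123 replicate 1 of that line and 1 without L-778123 replicate 2, and the lower count was 5 to 7. In KURAMOCHI the higher count was 2 without either OVSAHO simvastatin array and 0 without either KURAMOCHI simvastatin array or KURAMOCHI L-778123 replicate 2. Its lower count was 1 without KURAMOCHI simvastatin replicate 1 and ranged over 1 to 4 under the other alternatives. TOMM40, the channel of the import complex, read -0.77 in OVSAHO (standard error 0.066, limma adjusted p = 4.32e-04) and -0.40 in KURAMOCHI (standard error 0.066, adjusted p = 0.00780 from limma). MTX2 had the largest line difference, -1.15. Of the 9 genes of cytochrome c maturation and the apoptosome, 4 were higher and 2 lower in OVSAHO, and 1 was higher and 3 were lower in KURAMOCHI. The OVSAHO higher count was 2 without OVSAHO simvastatin replicate 1. The KURAMOCHI higher count was 0 without any 1 KURAMOCHI array and 3 under quantile normalization, and the lower count was 1 without either KURAMOCHI simvastatin array and 2 without any other array. HCCS, which attaches heme to cytochrome c, was lower in both lines, at -0.57 and -0.34, as was CYC1. DIABLO, an inhibitor of IAP proteins that leaves the mitochondria with cytochrome c, was 0.81 higher in OVSAHO with simvastatin (adjusted p = 0.00228 from limma). APAF1, the scaffold of the apoptosome, read -0.49 in KURAMOCHI (adjusted p = 0.0298 from limma). This call was lost without any 1 of the 4 OVSAHO arrays, either KURAMOCHI simvastatin array or KURAMOCHI L-778123 replicate 2, with adjusted p of 0.0511 to 0.121 from limma. CASP9, the initiator caspase of the apoptosome, was lower in OVSAHO than in KURAMOCHI, by -1.21.

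**Figure D4:**
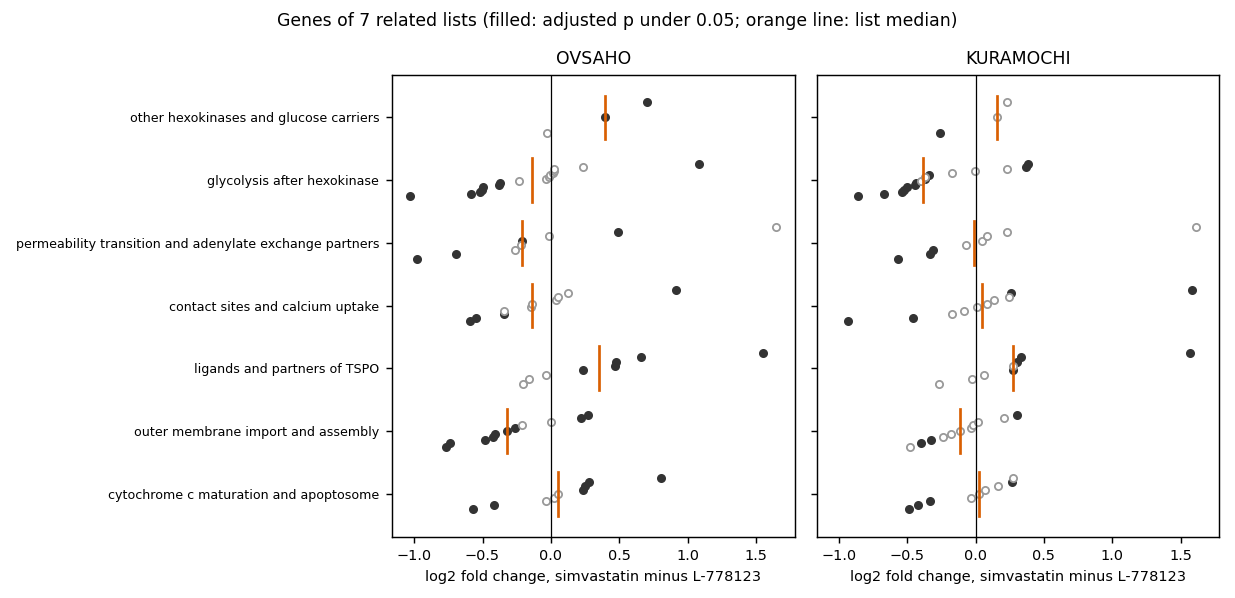
Log2 fold change of simvastatin minus L-778123 (x axis) for the tested genes of 7 lists (rows) in OVSAHO (left) and KURAMOCHI (right). Each point is 1 gene, filled where its adjusted p was under 0.05, and the orange line is the median of the list. The medians lie at -0.14 and -0.38 for glycolysis after hexokinase and at 0.35 and 0.27 for the ligands and partners of TSPO.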

How the data were processed

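Per the labels, RNA of 2 cell lines with 2 drugs was measured on 8 one-color Agilent SurePrint G3 arrays, 2 for each group, and groups follow the labels. The authors extracted the scans with Feature Extraction (11.5.1.1 in the submitters' processing notes) and deposited each spot's processed signal, which is an intensity corrected for background within the array and not normalized between arrays. A deposited table of processed intensity was quantile normalized: its sorted log2 values differed between arrays by at most 0.0158 over the upper part of the range, and those of the scanner by up to 0.649.

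Control spots were dropped, as were the spots flagged as outliers (58 to 99 on an array), which kept 58162 of 58201 probes. Each array's 75th percentile was subtracted on the log2 scale, and spots of 1 probe were averaged. Symbols came from the transcript named in the deposited files through a table of RefSeq accessions, which named 31079 probes. Probes were tested where both arrays of any group were well above background, 33753 in all, by lmFit and eBayes of limma 3.58.1 (R 4.3.3), with a mean for each group and a common spread. Passed means an adjusted p under 0.05, and the methods' fold of at least 2 is counted beside it. From each related list, the gene of largest change that passed was named in each drug contrast and in the line difference, and for VDAC1 the 5 genes of highest correlation; other genes named from the lists were chosen after their values were seen, and some genes that this rule gives are not reported here. The members, lists and alternatives were chosen with earlier results of these data known. The fit was tested on simulated data. A first pass mark, on the recovery of all changed probes of low spread, was missed and was replaced by one on probes changed 4-fold on unaltered simulated data. Python 3.11.15 and matplotlib 3.10.9 made the figures. The number of arrays limits the precision.

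As alternatives, the filter on dim probes was dropped or tightened, normexp (offset of 50, spot median) replaced the processed signal, arrays were normalized by quantiles or by the 75th percentile of bright probes, or the authors' table was used. The fit was repeated on the compared groups, with the replicate number as a block, by the methods' analysis of variance with Tukey's test, on the median of a gene's probes, and without each array.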

Additional observations from a re-analysis of the deposited data

Results flagged for a closer look

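For 3 of the 10 genes the effect of simvastatin against L-778123 differed between the cell lines by the test of the difference itself, in limma, at a share of all genes of 27.4%. VDAC2 was higher in OVSAHO and lower in KURAMOCHI, and the log2 difference of 0.44 had an adjusted p of 0.0178. At the second VDAC2 probe this difference was 0.32 and did not pass (adjusted p = 0.110 in limma). TSPO was higher in OVSAHO alone, and the difference of 0.50 had an adjusted p of 0.00966 in limma. CYCS was lower in both lines and more so in OVSAHO, and the difference of -0.56 had an adjusted p of 0.00592 in limma. The call was lost in 6 of 16 alternatives for VDAC2, with adjusted p from 0.00524 to 0.0831, in 1 of 16 for TSPO, without the filter on dim probes (adjusted p = 0.0532 in limma), and in 0 of 16 for CYCS. Groups of 2 arrays are too small to look for single arrays that stand apart.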

How the results depend on the processing

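The drug effects of VDAC1, VDAC3, SLC25A4 and CYCS passed in both lines under all 18 alternatives, and TSPO passed in OVSAHO under all 18. The line differences of VDAC1, VDAC2, VDAC3, SLC25A5, SLC25A6, TSPO and HK1 passed under all 16. Of 788 values of single genes, 687 kept their direction and their side of the threshold, 71 no longer passed, 4 passed in addition and 26 turned in sign. Without the filter on dim probes the genes whose drug effect differed between the lines fell from 3 to 1. With each array left out in turn, the genes that passed numbered 5 to 7 in OVSAHO, 4 to 5 in KURAMOCHI, 2 to 3 for the difference of the drug effects and 7 to 8 between the lines. The shares of all genes that passed under these settings are not given here, so these counts cannot be set against them.

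Same-numbered arrays hardly deviated together across probes (correlations of deviations of 8.48e-04 to 0.0556). This cannot show whether they were cultured or processed together, and the labels do not say what the number means. With the replicate block 7 of the 10 genes passed in OVSAHO, 5 in KURAMOCHI, 3 in the difference and 8 between the lines. For the block, too, the shares of all genes are not given.

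Values that turned in sign are small, except for TSPO. Under quantile normalization and with the authors' table, in that order, they were 0.011 and 0.012 for HK2 in KURAMOCHI, -0.033 and -0.035 for SLC25A5 in OVSAHO, -0.022 and -0.022 for the line difference of SLC25A4, and -0.37 and -0.37 for that of TSPO with simvastatin. For the difference of the drug effects they were -0.081 and -0.091 for SLC25A6, -0.031 and -0.036 for VDAC1, and 0.012 and 0.0099 for VDAC3. Normexp gave 0.0086 for HK2 in KURAMOCHI and -0.052 for the line difference of TSPO with simvastatin. With each array left out in turn, the range crossed 0 for HK2 in KURAMOCHI (-0.081 to 0.067), SLC25A5 in OVSAHO (-3.33e-04 to 0.13), the line difference of SLC25A4 (-0.014 to 0.042) and of TSPO with simvastatin (-0.021 to 0.047), and the difference of the drug effects for HK1 (-0.080 to 0.020) and VDAC3 (-0.051 to 0.015). The cause was not tested.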
